A study of Mus musculus with 2 samples.

Results

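Carbonic anhydrases are the enzymes that turn carbon dioxide and water into bicarbonate and a proton, and 10 genes of this family were followed here through both libraries of a mouse breast tumour study. The genes were Car2, Car3, Car4, Car5b, Car6, Car8, Car9, Car11, Car12 and Car13, chosen by symbol, and all 10 were found among the 22558 genes of the deposited tables. The tables list 16 genes with a carbonic anhydrase symbol, and the other 6 are described after the chosen ones. RNA was sequenced from tumour-initiating cells (TIC), the fraction of a breast tumour named for starting new tumours, and from non-tumorigenic cells (NTC). Both fractions came from FVB mice, a strain kept inbred for laboratory work, and were purified by flow cytometry straight after the tumours were dissociated, without treatment. Each group is 1 library. How many animals or tumours each library stands for, which mouse model was used and which surface markers defined the sort is not stated in the labels. The differences below are therefore between these 2 libraries, with no test, no SD and no p-value.

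In the cell the family divides labour by place. Enzymes of the cytosol and of the mitochondrial matrix supply bicarbonate or protons to transporters and to carboxylating enzymes, while those anchored on the outer cell surface act on the carbon dioxide and acid that the cell gives off. CA9 and CA12 are surface enzymes widely studied in human tumours, where CA9 is a standard marker of low oxygen and CA12 is common in hormone-receptor-positive breast cancer. A few members keep the protein fold but have lost the ability to carry out the reaction.

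Coding sequences are shown for members that differed between the libraries and for Car11. An active enzyme holds a zinc ion with 3 histidines, which are encoded by CAC or CAT. The stretch of each coding sequence that spans these codons is shown 5′ to 3′ for a surface, a cytosolic, a mitochondrial and a secreted enzyme and for Car11, which has no activity, with capitals at the 3 codons that align with the zinc-binding histidine codons of Car2. The sequences are those of GENCODE M21 transcripts (build GRCm38).
Car12: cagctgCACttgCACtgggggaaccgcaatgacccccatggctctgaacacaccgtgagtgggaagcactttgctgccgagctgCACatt
Car2: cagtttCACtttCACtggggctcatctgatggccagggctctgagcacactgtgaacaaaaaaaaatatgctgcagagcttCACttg
Car5b: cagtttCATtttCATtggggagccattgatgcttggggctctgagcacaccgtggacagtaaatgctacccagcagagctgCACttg
Car6: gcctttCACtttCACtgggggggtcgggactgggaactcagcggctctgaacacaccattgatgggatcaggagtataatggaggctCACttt
Car11: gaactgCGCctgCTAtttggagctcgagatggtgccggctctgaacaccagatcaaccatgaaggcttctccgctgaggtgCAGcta

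These codons were compared for 9 of the 10 members, Car8 being left out, so they give no general contrast of active with inactive members. All 3 aligned codons were histidine codons in Car2, Car3, Car4, Car5b, Car6, Car9, Car12 and Car13, and Car11 had 0. Over the aligned part of the translated coding sequences, Car3 was 56.9% identical to Car2, Car13 56.5% and Car5b 51.5%. Car9 was 38.4% identical to Car2, Car12 37.5%, Car6 36.7%, Car4 33.3% and Car11 33.3%.

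The carbonic anhydrase transcripts of TIC were almost all Car12, whereas those of NTC were spread over Car2, Car12, Car8 and Car5b. Levels are in FPKM (a fragment count divided by transcript length and library size), so genes of different length can be compared. The 10 genes summed to 116.4 FPKM in TIC, against 92.4 FPKM in NTC, which is 1.26 times as much, and 1.42 times when each library was scaled to the same sum over all genes. Without Car12, the other 9 genes summed to 5.62 FPKM in TIC, against 71.5 FPKM in NTC. Car12 held 95.2% of the summed level in TIC, against 22.7% in NTC. Car2 held 0.659% in TIC, against 45.8% in NTC. By place, enzymes of the outer cell surface held 97.1% in TIC and 23.8% in NTC, and those of the cytosol held 1.35% in TIC and 48.3% in NTC. In a sorted bulk sample, fewer cells with a transcript and less of it per cell cannot be told apart.

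**Figure D1:**
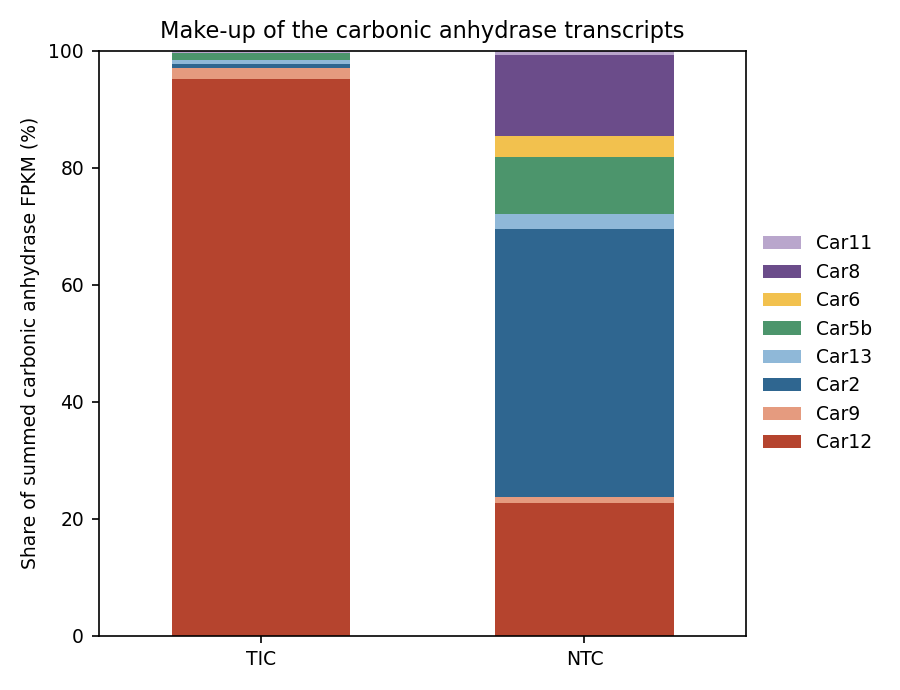
Share of the summed FPKM of the 10 carbonic anhydrase genes held by each gene, in percent, for the TIC library and the NTC library (1 library each, no error bars). Car12 fills 95.2% of the TIC bar and 22.7% of the NTC bar, where Car2 is the largest block at 45.8%. Car4 was listed at 0 in both libraries and Car3 held 0.0286% in TIC, so neither is drawn.

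Ratios are log2((TIC + 1)/(NTC + 1)), with 1 FPKM added to each value, so that they understate the difference of low genes. A gene with a mean of at least 1 FPKM over both libraries is called measured, and a log2 ratio of at least 1 in size is called 2-fold. Of the 10 members 7 were measured, of which 1 was at least 2-fold higher in TIC (Car12), 4 were at least 2-fold lower (Car2, Car5b, Car6 and Car8) and 2 lay within 2-fold (Car9 and Car13). Among all 12004 measured genes, 14.6% lay at 2-fold or more toward TIC and 13.8% at 2-fold or more toward NTC, together 28.4%. The share of measured members that was higher, 14.3%, was near that background, and the share that was lower was 57.1%. Car2, Car6, Car8 and Car13 reached the mean of 1 FPKM through NTC alone, so a gene of this kind could scarcely enter the count without being lower in TIC. Of the 3 genes at 1 FPKM or more in both libraries, Car12 was higher, Car5b lower and Car9 within 2-fold. The median log2 ratio was -2.07 over the 7 measured members and -0.59 over all 10, beside -0.16 over all measured genes.

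The sorted fractions differed in their levels of mammary lineage markers. No likeness of pattern between these markers and the members was computed, since 2 libraries give none. Each of the 9 basal markers was 2-fold or more higher in TIC, with a summed level of 3808 FPKM in the TIC library against 40.5 FPKM in the NTC library, and the highest in TIC was Acta2, smooth muscle actin (2101 FPKM in TIC, 6.13 FPKM in NTC). Each of the 9 luminal markers was 2-fold or more lower in TIC, with a summed level of 97.0 FPKM in the TIC library against 4952 FPKM in the NTC library. Krt14, a basal keratin, was the highest basal marker in NTC (134.3 FPKM in TIC, 16.01 FPKM in NTC), and Csn3, a milk casein, was the highest luminal marker in both libraries (48.9 FPKM in TIC, 2277 FPKM in NTC). No basal or luminal marker was listed at 0. Of 6 fibroblast markers 4 were measured, and these 4 were at least 2-fold higher in TIC. The 6 summed to 173.3 FPKM in the TIC library against 2.44 FPKM in the NTC library, mostly through Dcn (151.8 FPKM in TIC, 1.51 FPKM in NTC). The collagen genes Col1a1 (0.459 FPKM in TIC, 0.339 FPKM in NTC) and Col3a1 (0.221 FPKM in TIC, listed at 0 in NTC) did not reach the mean of 1 FPKM. The part of lineage in the carbonic anhydrase differences was not tested. Low values of short receptor genes put the depth at roughly 20.99 M mapped fragments in TIC and 21.6 M in NTC, and the read numbers given below are approximate and derived from these depths and the longest coding transcript of each gene.

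**Figure D2:**
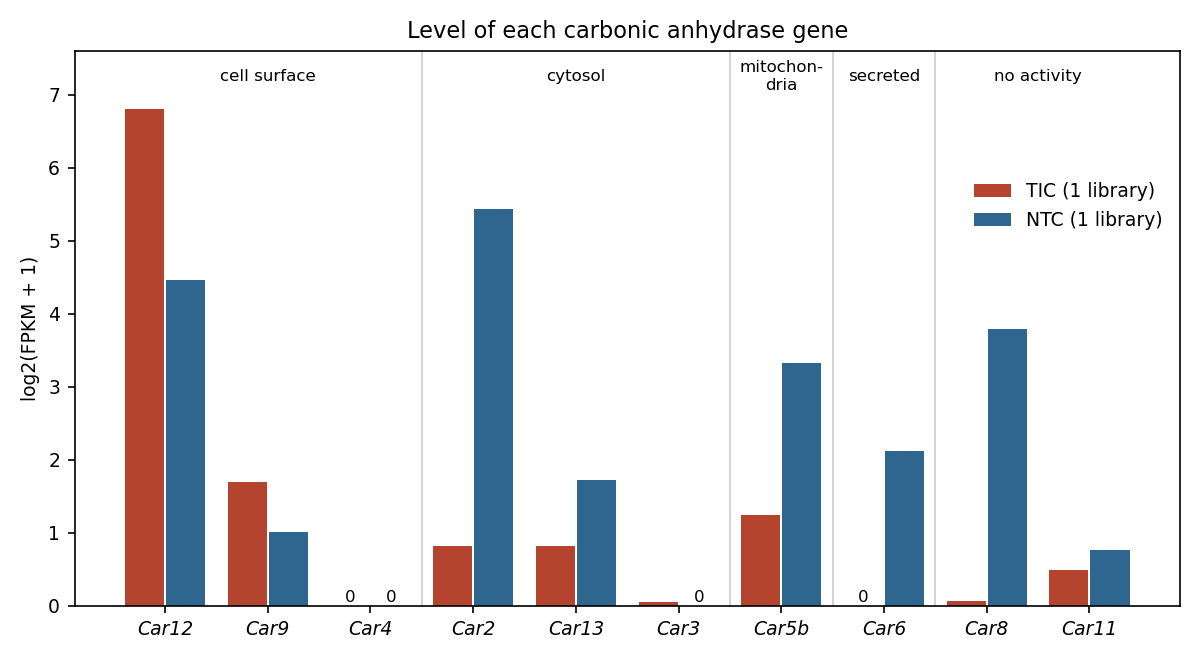
Level of each of the 10 carbonic anhydrase genes as log2(FPKM + 1), in the TIC library (left bar) and the NTC library (right bar), grouped by where the protein works. A bar marked 0 is listed at 0 FPKM. Car12 and Car9 are the genes whose TIC bar is visibly the taller, and Car2, Car8, Car5b and Car6 have the largest gaps the other way.

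Among the enzymes of the outer cell surface, Car12 was the member with the highest level in TIC. It had 110.8 FPKM in the TIC library against 20.96 FPKM in the NTC library (chromosome 9, 66561493 to 66614652, build mm9), which rests on about 8641 reads in TIC and 1683 in NTC. The TIC level was 5.28 times the NTC level, and the log2 ratio was 2.35. Car12 lay above 98.0% of all listed genes in TIC and above 83.9% in NTC, so it was well expressed in both. Among measured genes 6.01% had a ratio as high, so a difference of this size was not rare between these libraries. Its nearest listed neighbours did not stand out in the same way. Aph1b, 8.64 kb to the right, had 1.35 FPKM in the TIC library against 0.612 FPKM in the NTC library, and Usp3 on the left had 10.8 FPKM in TIC and 18.8 FPKM in NTC.

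Car9, the other transmembrane enzyme of the cell surface, was low in both libraries. It had 2.23 FPKM in the TIC library against 1.02 FPKM in the NTC library (chromosome 4, 43519898 to 43526597, mm9), from about 94.7 reads in TIC and 44.6 in NTC. The log2 ratio of 0.68 lay within 2-fold, while without the added 1 FPKM the TIC level was 2.19 times the NTC level. The next gene along the chromosome, Tpm2, a tropomyosin of contractile cells, begins 0.987 kb from the end of Car9 and had 144.5 FPKM in the TIC library against 1.58 FPKM in the NTC library. Whether reads from this neighbour add to the Car9 value was not tested. Within TIC the level of Car12 was far above that of Car9. Car4, an enzyme tied to the outer surface by a lipid anchor and known from capillary endothelium, was listed at 0 in both libraries. The 6 endothelial markers summed to 3.08 FPKM in the TIC library against 1.01 FPKM in the NTC library, with Kdr highest in TIC (1.61 FPKM, listed at 0 in NTC), Vwf highest in NTC (0.0148 FPKM in TIC, 0.663 FPKM in NTC) and Emcn also listed at 0 in NTC.

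Of the cytosolic enzymes, Car2 was the most abundant carbonic anhydrase of NTC and was low in TIC. This fast and widespread enzyme, known from red cells, osteoclasts and secretory epithelia, had 0.767 FPKM in the TIC library against 42.3 FPKM in the NTC library (chromosome 3, 14886426 to 14900770, mm9). These values rest on about 28.8 reads in TIC and 1635 in NTC. The NTC level was 55.2 times the TIC level, and the log2 ratio of -4.62 was matched or exceeded in that direction by 78 of 12004 measured genes (0.650%). Of the 10 genes Car2 ranked the first in NTC and number 5 in TIC.

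Other cells that use Car2 were looked for by their markers. Of the erythroid markers, Slc4a1 and Epb4.2 were listed at 0 in both libraries, Hbb-b1 and Hbb-b2 were also listed at 0 in TIC, and the list summed to 0.524 FPKM in the TIC library against 6.20 FPKM in the NTC library. Most of the NTC sum was Hba-a1, a globin with near-identical copies (0.106 FPKM in TIC, 5.55 FPKM in NTC), and the highest in TIC was Alas2 (0.412 FPKM in TIC, 0.464 FPKM in NTC). Car1, the other main red-cell carbonic anhydrase, was listed at 0 in both libraries. Among markers of macrophages and osteoclasts, Ptprc and Emr1 were listed at 0 in both, Csf1r at 0 in TIC and Ctsk at 0 in NTC. Acp5, a phosphatase of osteoclasts, was the highest of that list (51.2 FPKM in TIC, 23.1 FPKM in NTC), and the 6 listed markers summed to 52.1 FPKM in the TIC library against 24.6 FPKM in the NTC library.

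Car13 and Car3, the other cytosolic members, were low. Car13 had 0.770 FPKM in the TIC library against 2.31 FPKM in the NTC library, from about 37.2 reads in TIC and 115 in NTC. Its log2 ratio of -0.90 lay within 2-fold, while without the added 1 FPKM the NTC level was 3.001 times the TIC level. Car3, an enzyme of low activity that is abundant in muscle and fat, had 0.0333 FPKM in TIC, about 1.17 reads, and was listed at 0 in NTC. The 6 fat cell markers were also near 0, with sums of 0.131 FPKM in TIC and 0.0798 FPKM in NTC. Their highest values were those of Lep in TIC (0.0864 FPKM, listed at 0 in NTC) and Fabp4 in NTC (0.0798 FPKM, listed at 0 in TIC), Plin1 was also listed at 0 in NTC, and Adipoq, Cfd and Cidec at 0 in both. Of 6 skeletal muscle markers, Mb was the highest (2.47 FPKM in TIC, 8.13 FPKM in NTC), Myh4 was listed at 0 in both, Ckm and Tnnt3 were listed at 0 in TIC and Myh1 in NTC, and the sums were 2.55 FPKM in TIC and 9.08 FPKM in NTC.

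Car13, Car1, Car3 and Car2 lie in this order along chromosome 3, so their levels can be read along a single stretch of the genome. Car13 and Car1 are 103.2 kb apart, Car1 and Car3 55.2 kb, and Car3 and Car2 14.1 kb. In NTC their levels along the stretch were 2.31, 0, 0 and 42.3 FPKM. The high level in NTC was thus at Car2 and not at its nearest neighbour Car3, and the next listed gene beyond Car2, A930001A20Rik, was listed at 0 in both libraries.

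Car5b, the enzyme of the mitochondrial matrix found in many tissues, was lower in TIC. It had 1.37 FPKM in the TIC library against 8.98 FPKM in the NTC library (chromosome X, 160414754 to 160465942, mm9), from about 99.1 reads in TIC and 667 in NTC. The NTC level was 6.54 times the TIC level, and the log2 ratio was -2.07, a value that 4.72% of measured genes matched or exceeded in that direction. Both flanking genes were within 2-fold, Zrsr2 with 6.83 FPKM in the TIC library against 5.76 FPKM in the NTC library, and Siah1b with 1.59 FPKM in TIC and 3.28 FPKM in NTC. Among enzymes that use bicarbonate, Pcx, the mitochondrial pyruvate carboxylase, was likewise lower in TIC (2.14 FPKM in TIC, 15.1 FPKM in NTC). It was the only 1 of 8 measured bicarbonate-using genes to reach 2-fold (2 did with a pseudocount of 0.1 FPKM), and the 8 had a median log2 ratio of -0.45 with 7 of them lower in TIC. The share of all measured genes at 2-fold or more in either direction was 28.4%.

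Car6, the secreted member of the family known from saliva and milk, stood at 0 in the TIC table and at 3.33 FPKM in the NTC table (chromosome 4, 149561125 to 149575244, mm9), from about 113 reads. It counts among the 4 lower genes on the log2(FPKM + 1) scale, but since an exact 0 in such tables can be a failed estimate, no fold is given. Its neighbour Eno1, a glycolytic enzyme with near-identical copies, had 21.8 FPKM in the TIC library against 6.73 FPKM in the NTC library, and Slc2a7 on the other side was listed at 0 in both.

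Among the members without enzyme activity, Car8 was the third most abundant carbonic anhydrase of NTC and was close to 0 in TIC. Car8, a cytosolic protein that binds the inositol trisphosphate receptor of the endoplasmic reticulum and is best known from Purkinje neurons, had 0.0411 FPKM in the TIC library against 12.8 FPKM in the NTC library (chromosome 4, 8068640 to 8166188, mm9). The TIC value corresponds to about 3.33 reads and the NTC value to about 1068. With so few reads behind the TIC value, no plain ratio is given. On the log2(FPKM + 1) scale the ratio was -3.73, and 1.38% of measured genes matched or exceeded it in that direction. The Car8 ratio was smaller in size than that of Car2 on this scale. With a pseudocount of 0.1 FPKM the order was reversed, at -6.52 for Car8 and -5.61 for Car2. The receptor genes themselves differed little, Itpr1 with 17.5 FPKM in the TIC library against 23.7 FPKM in the NTC library, Itpr2 with 16.7 FPKM in TIC and 21.5 FPKM in NTC and Itpr3 with 12.6 FPKM in TIC and 21.7 FPKM in NTC. All 3 lay within 2-fold, with a median log2 ratio of -0.42.

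Neuronal markers were looked up beside Car8, and whether neurons add to its level was not tested. Syt1, Pcp2 and Calb1 were listed at 0 in both libraries, Snap25 was listed at 0 in TIC and Tubb3 at 0 in NTC, and the 6 markers summed to 21.1 FPKM in the TIC library against 0.371 FPKM in the NTC library. Tubb3, a tubulin, made up most of the TIC sum at 19.1 FPKM, and Rbfox3 was the highest in NTC (2.04 FPKM in TIC, 0.328 FPKM in NTC). Car11, a secreted protein of the nervous system without enzyme activity, had 0.404 FPKM in the TIC library against 0.695 FPKM in the NTC library, from about 13.5 reads in TIC and 23.8 in NTC. It did not reach the mean of 1 FPKM.

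**Figure D3:**
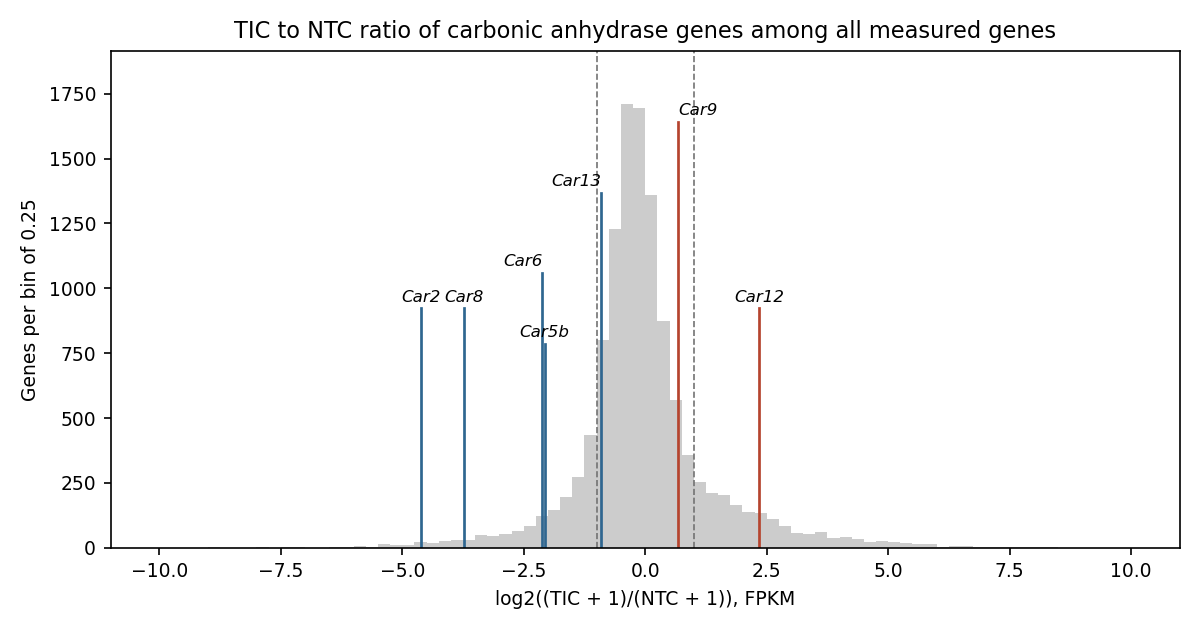
Number of measured genes (12004 in all) in bins of the log2 ratio of TIC to NTC, in grey, with the 7 measured carbonic anhydrase genes as lines (red where higher in TIC, blue where lower). The height of a line carries no value, and the dashed lines mark 2-fold. Car2 at -4.62 and Car8 at -3.73 lie in the far left tail, Car12 at 2.35 in the right tail, and Car13 and Car9 inside the dashed lines. The Car6 line rests on a value of 0 in TIC.

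Ordered by level, the members ran Car12, Car9, Car5b, Car13, Car2, Car11, Car8 and Car3 in TIC, with Car6 and Car4 listed at 0. In NTC the order was Car2, Car12, Car8, Car5b, Car6, Car13, Car9 and Car11, with Car3 and Car4 listed at 0. In TIC 3 members had at least 1 FPKM and 1 had at least 10 FPKM, while in NTC 7 had at least 1 FPKM and 3 at least 10 FPKM. With 1 library in each group the spread between samples is unknown, so neighbours in these orders cannot be said to differ, and Car13 and Car2 in TIC were almost equal at 0.770 and 0.767 FPKM.

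The 6 further carbonic anhydrase genes added little to the totals. Only Car15, a lipid-anchored surface enzyme, was measured, with 0.212 FPKM in the TIC library against 2.02 FPKM in the NTC library and a log2 ratio of -1.32. Car1 and Car10 were listed at 0 in both libraries. Car5a, the second mitochondrial enzyme, had 0.253 FPKM in the TIC library and stood at 0 in NTC. Car14, a surface enzyme, likewise had 0.0562 FPKM in TIC and 0 in NTC. Car7 had 0.0388 FPKM in the TIC library against 0.110 FPKM in the NTC library. Over all 16 genes Car12 held 94.7% of the summed level in TIC and 22.2% in NTC. A carbonic anhydrase-like domain without activity is also part of 2 receptor phosphatases, of which Ptprz1 had 2.46 FPKM in the TIC library against 13.3 FPKM in the NTC library (log2 ratio -2.05) and Ptprg 33.6 FPKM in TIC and 25.8 FPKM in NTC.

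Surface carbonic anhydrases act together with carriers of bicarbonate, protons and lactate. Of 15 bicarbonate transporter genes 4 were measured, of which 2 were higher in TIC by 2-fold or more and 0 lower. The shares over all measured genes were 14.6% higher and 13.8% lower. Slc4a11, a proton-conducting member of the bicarbonate transporter family, had 11.7 FPKM in the TIC library against 0.363 FPKM in the NTC library, although its row combines several gene identifiers. Slc4a3 and Slc4a11 reached the mean of 1 FPKM through TIC alone, so their direction was tied to that floor, and 1 of the 2 was left with a pseudocount of 5 FPKM or a mean of at least 5 FPKM. Slc4a3, an anion exchanger, had 2.50 FPKM in TIC and 0.639 FPKM in NTC, and Slc4a2, the widespread anion exchanger, had 15.2 FPKM in TIC and 18.0 FPKM in NTC. Of 8 measured genes of proton and lactate export, 3 were higher in TIC by 2-fold or more and 2 lower, with a median log2 ratio of 0.67. The same shares of all measured genes, 14.6% and 13.8%, apply. Emb (embigin), a chaperone of lactate transporters, had 191.9 FPKM in the TIC library against 5.36 FPKM in the NTC library. Bsg (basigin), also a chaperone of lactate transporters and more abundant than Emb in both libraries, had the opposite direction within 2-fold. It had 382.3 FPKM in TIC and 751.2 FPKM in NTC (log2 ratio -0.97). The summed level of all 14 genes of this list was 716.9 FPKM in TIC and 1023 FPKM in NTC. The lactate transporters Slc16a7 (12.4 FPKM in TIC, 2.60 FPKM in NTC) and Slc16a3 (12.05 FPKM in TIC, 3.87 FPKM in NTC) were also higher in TIC. The scaffolds Slc9a3r1 (14.2 FPKM in TIC, 126.8 FPKM in NTC) and Slc9a3r2 (8.998 FPKM in TIC, 74.6 FPKM in NTC), which hold transporters at the apical membrane, were lower.

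Of 6 gas and water channel genes 3 were measured, and all 3 had lower values in TIC, 2 of them by at least 2-fold. The share of all measured genes that was lower by this measure was 13.8%. Aqp1, a water channel also reported to pass carbon dioxide, had 0.755 FPKM in the TIC library against 21.7 FPKM in the NTC library (log2 ratio -3.69), and Rhbg, an ammonia channel of the Rhesus family, had 0.0321 FPKM in TIC and 2.44 FPKM in NTC. Aqp1 and Rhbg reached the mean of 1 FPKM through NTC alone, so their direction was tied to it, and 1 of the 2 was left with a pseudocount of 5 FPKM or a mean of at least 5 FPKM. Rhag and Rhcg were listed at 0 in both libraries.

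Since CA9 and CA12 are known in human cells as genes that low oxygen can raise, the genes of oxygen sensing were set beside them. Of 9 measured regulators, 4 were higher in TIC by 2-fold or more and 1 lower, with a median log2 ratio of 0.63. Arnt2, a partner subunit of the hypoxia-inducible factors, had 13.3 FPKM in the TIC library against 1.27 FPKM in the NTC library, and Hif1a, the main oxygen-regulated subunit, had 53.0 FPKM in TIC and 22.6 FPKM in NTC. The oxygen-sensing hydroxylases Egln3 (85.2 FPKM in TIC, 23.8 FPKM in NTC) and Egln1 (57.7 FPKM in TIC, 22.1 FPKM in NTC) were also higher in TIC, while Epas1, the second oxygen-regulated subunit, was lower (3.95 FPKM in TIC, 11.99 FPKM in NTC). Over all measured genes the shares were 14.6% higher and 13.8% lower, and with a pseudocount of 5 FPKM Epas1 no longer reached 2-fold, which left 0 lower. Of 20 measured target genes other than carbonic anhydrases, 5 were higher in TIC by 2-fold or more and 1 lower, Ndrg1 (43.5 FPKM in TIC, 118.7 FPKM in NTC). The prolyl hydroxylases of collagen P4ha1 (33.7 FPKM in TIC, 5.33 FPKM in NTC) and P4ha2 (9.76 FPKM in TIC, 3.63 FPKM in NTC) were among the 5, with the mitophagy gene Bnip3 (21.2 FPKM in TIC, 4.78 FPKM in NTC) and the mTOR inhibitor Ddit4 (13.995 FPKM in TIC, 5.09 FPKM in NTC). With a pseudocount of 5 FPKM 3 of the 5 were left, and the same shares of all measured genes, 14.6% and 13.8%, apply. The median log2 ratio of the 20 was 0.52, and 14 had a higher value in TIC. Vegfa, the blood vessel growth factor and the last of the 5, had 44.1 FPKM in the TIC library against 14.4 FPKM in the NTC library. Ldha, lactate dehydrogenase A, the target with the highest level in both libraries, did not differ by 2-fold, at 444.1 FPKM in TIC and 484.6 FPKM in NTC. Car9, the member most used as a marker of low oxygen, had the smaller ratio of the transmembrane pair and a low level in both libraries. Whether low oxygen bears on the Car9 and Car12 values was not tested.

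**Figure D4:**
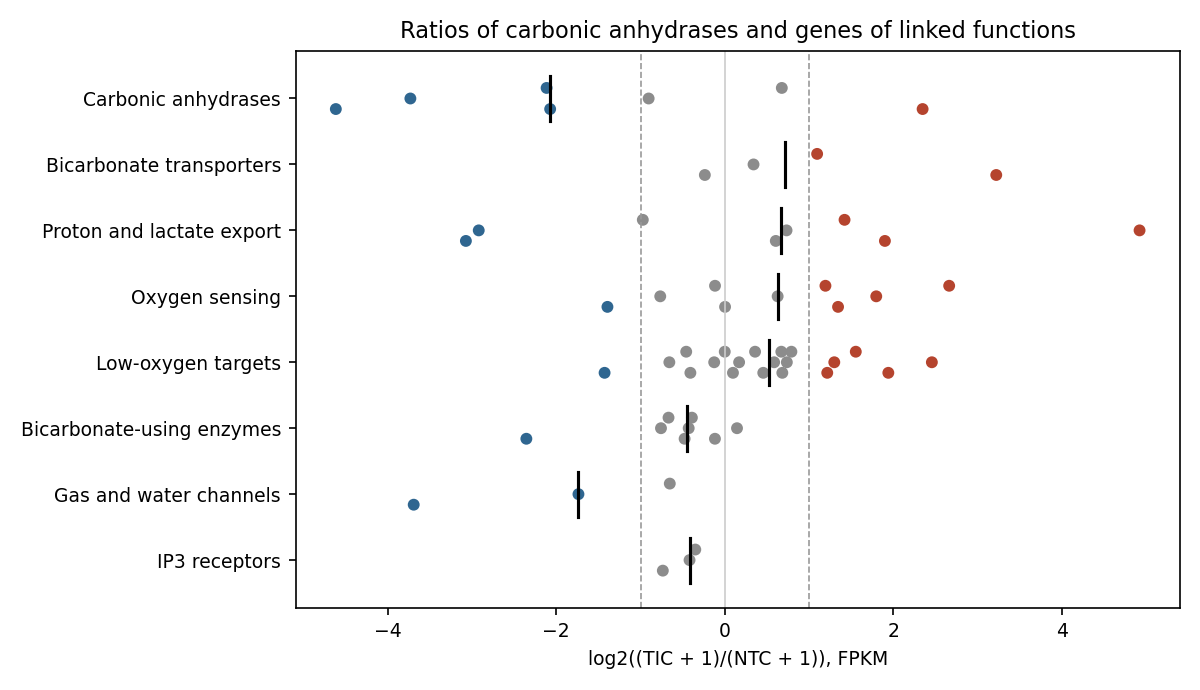
Log2 ratio of TIC to NTC for each measured gene of the carbonic anhydrases and of 7 linked gene groups, with points red where at least 2-fold higher in TIC, blue where at least 2-fold lower and grey between, and black bars at the medians. The median is -2.07 for the carbonic anhydrases, 0.63 for oxygen sensing, 0.52 for low-oxygen targets and -1.74 for gas and water channels. The Car6 point rests on a value of 0 in TIC.

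The sequence bound by hypoxia-inducible factors has the core ACGTG or GCGTG, and both were searched on either strand in the 250 bases before the start of transcription. Promoters of RefSeq genes (build GRCm38.p6) were found for 6 of the 10 members, namely Car4, Car5b, Car6, Car9, Car11 and Car12, and not for Car2, Car3, Car8 and Car13. At least 1 match stood before 38.6% of all 32851 promoters, and before 56.6% of the 10883 promoters of measured genes. Car12 and Car4 had none in this window. The windows below are shown on the strand of the gene with the matches in capitals, because Car9 is the classical low-oxygen gene of the family and Car5b held the most matches.
Car9: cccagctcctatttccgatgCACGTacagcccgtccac
Car5b: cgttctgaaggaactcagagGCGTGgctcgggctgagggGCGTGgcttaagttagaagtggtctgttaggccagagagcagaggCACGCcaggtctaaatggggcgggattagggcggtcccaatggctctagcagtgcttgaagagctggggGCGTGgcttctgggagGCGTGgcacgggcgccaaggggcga

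The Car9 window (chr4:43506988-43507025, plus strand) holds a single match on the opposite strand, 18 to 14 bases before the start. The Car5b window (chrX:164028031-164028224, minus strand) holds 5 matches that do not overlap. With overlapping matches also counted, 1.90% of the promoters of measured genes held 5 or more. Car5b was shown for having the most matches, so this share does not measure how unusual it is. Car6 had matches on both strands that overlap in a single palindrome 149 to 144 bases before its start, and 1 of the 2 Car11 starts had 1 match. Whether the number of matches bears on the ratios was not tested. Such matches describe the letters and do not show binding.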

How the data were processed

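RNA was measured in 1 library of each group. Per the labels' protocols, 15 ng of total RNA was amplified to cDNA, fragmented and made into libraries, and reads copied in amplification are not independent molecules. The authors deposited FPKM values, 1 per gene and library. Per the submitters' processing notes the tools were TopHat 1.4.0, Cufflinks, Cuffdiff and CASAVA 1.8.2 and the build was mm9, with no roles or settings. The notes do not say whether counting used strand. The locus heading reads as a human build, while the positions are those of mouse genes, and they are given as mm9. Starts were 1 below the GRCm38 start for 198 genes and equal to it for 12, so 1 was added to each.

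The members and gene lists were chosen with earlier results of these data known. Named are all listed carbonic anhydrases, the highest and the 0-listed genes of each marker list, and, in the other lists, up to 5 genes a direction that were measured and at least 2-fold different. A few further genes, among them neighbours along the chromosome, Slc4a2, Ptprg, Ldha, Bsg and the Itpr genes, were named after their values were seen. FPKM are not counts, so no count model was fitted, and 1 library per group allows no test. Exact zeros were listed for 7345 genes in TIC, 7397 in NTC and 6158 in both, and are not read as absence. Depth was estimated from the short receptor genes of smell (olfactory and vomeronasal, locus under 1.5 kb). The value times length expected of 1 read was sought between 0.035 and 0.065, and its median was 0.0476 in TIC (23 genes) and 0.0463 in NTC (39 genes). Whole numbers of reads, to within 0.15, were found for 34 of 46 low TIC values and 50 of 60 low NTC values. The low values include those that set the median, so this is no independent check of the depth. Read numbers are rough, and they cover counting only. Coding sequences were translated and aligned (Biopython 1.88, BLOSUM62). The calculation was also run on simulated data, as a check of the code only. The outcome of that run is not given and is not evidence for any ratio or count reported here. Alternatives were a pseudocount of 0.1 or 5 FPKM, no filter or a mean of at least 5 FPKM, scaling to equal sums, and centring on the median gene. Some items that the naming rule takes are not reported here.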

Additional observations from a re-analysis of the deposited data

How the results depend on the processing

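Of 40 log2 ratios recomputed for the 10 carbonic anhydrase genes, 4 for each gene, 37 stayed on the same side of 2-fold and none of the called ones changed sign. Both counts are a weak check. Car3, Car4 and Car11 lay below 1 FPKM in both libraries and could hardly pass 2-fold, and a changed pseudocount cannot reverse a sign. With a pseudocount of 0.1 FPKM, Car9 passed 2-fold at 1.06 and Car13 at -1.47, so 2 members were higher in TIC and 5 lower. With a pseudocount of 5 FPKM, Car6 fell short of 2-fold at -0.74, so 3 were lower. Over all genes, 1086 were higher and 921 lower with a pseudocount of 5 FPKM, and 1108 were higher with a mean of at least 5 FPKM. The summed level of the 10 genes was 1.42 times as high in TIC as in NTC after scaling to equal sums, in place of 1.26, a setting added after the data were seen. That scaling brought the median log2 ratio of all measured genes to -0.0036, a shift of the whole table that adds to Car12 (2.52) and takes from Car2, Car8 and Car5b, which stayed past 2-fold. Of 96 counts for single gene lists, 87 were equal or stayed within 1.5 times, among them counts that were 0 under every setting. Those that moved include 3 low-oxygen targets higher in place of 5 with a pseudocount of 5 FPKM. The few reads behind Car3, Car8 and Car2 in TIC limit their ratios. No paired analysis was possible because each group has 1 library, and no library could be left out for the same reason.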
